A study of Homo sapiens with 6 samples.

Results

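Aminoacyl-tRNA synthetases are the enzymes that join each amino acid to its transfer RNA. Their genes were taken by name from the table of gene counts: every row named with an amino acid letter followed by ARS, ARS1 or ARS2, plus EPRS, EPRS1, EARS2, FARSA, FARSB and FARS2 where present. This gave 37 of the 36601 rows, of which 17 have names ending in 2, the mark of an enzyme of the mitochondrial matrix, and 20 were counted as cytosolic. All 37 passed the filter on low counts, so none is missing from the tests.

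The cells were U2OS, a human osteosarcoma line, with a doxycycline-inducible TDP-43 that carries a mutated nuclear localization signal and the fluorescent protein Clover. In the aggregates group (3 libraries), induced cells received 50 nM fibril seeds of the TDP-43 low-complexity domain with lipofectamine-3000, and an image-based sorter kept cells with Clover aggregates. In the diffuse group (3 libraries), induced cells received the storage buffer of the protein in a mock transfection and were sorted for diffuse Clover. Both were taken 48 hours after transfection, each library from a transfection of its own, and the labels give all 6 libraries 1 batch. Seeding, the aggregate phenotype and the sort gate go together with the group and cannot be told apart, the seeded domain is a part of TDP-43 rather than the whole protein, and the labels do not say whether the line is a single clone.

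Each synthetase recognises 1 amino acid and its tRNAs, activates the amino acid with ATP and transfers it to the tRNA end, the step that fixes the genetic code. Cytosol and mitochondria are served by separate enzymes for most amino acids, all encoded in the nucleus. GARS and KARS make both forms from 1 gene, glutaminyl-tRNA in mitochondria is made indirectly, and EPRS holds the glutamyl and prolyl enzymes in 1 polypeptide. Several cytosolic synthetases sit in a large multisynthetase complex with 3 scaffold proteins. Many cytosolic synthetase genes are known targets of ATF4, the transcription factor of the amino acid response.

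In cells with aggregates most synthetase transcripts were more abundant, mostly by a small amount. Of 37 genes 25 rose (67.6%) and 6 fell (16.2%), whereas across all 17839 genes tested 37.8% rose and 37.6% fell (edgeR quasi-likelihood test, Benjamini-Hochberg adjusted p under 0.05). Among tested genes averaging 5 CPM or more (CPM, counts scaled to a common library total, with TMM factors between libraries), a level closer to that of the synthetases, 42.2% rose and 42.8% fell. The changes were small: the median log2 fold change was 0.18, against 0.01 over all genes, and the median absolute log2 fold change was 0.21, against 0.42 over all genes. A single member, MARS2, changed by more than 2-fold (2.7% of members), while 14.8% of all genes did. Against a fold of 1.2 rather than no change, 14 synthetase genes rose and 0 fell, where 25.1% of all genes rose and 26.5% fell (edgeR glmTreat). At an unadjusted p under 0.05 that test also gave 0 members lower, and against no change DESeq2 called 7 members lower.

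The synthetases as a family accounted for 0.664%, 0.672% and 0.675% of each aggregates library's counts, against 0.574%, 0.564% and 0.571% in the diffuse libraries. Every aggregates library lay above every diffuse library, and the ratio of the means was 1.18 (exact two-sided permutation test, p = 0.1, the smallest that 3 against 3 libraries allow). The cytosolic and the mitochondrial genes each gave the same ratio of 1.18, although the mitochondrial genes took only 0.0763 ± 0.0003% of counts in aggregates cells and 0.0647 ± 0.0007% in diffuse cells (SD, n = 3 each). By compartment, 15 of 20 cytosolic genes rose and 2 fell (median log2 fold change 0.20), and 10 of 17 mitochondrial genes rose and 4 fell (median 0.16). The difference between the compartments was not tested. The values of all 6 libraries did not overlap between groups for 33 of 37 members (89.2%), against 76.2% of all genes tested and 85.5% of those averaging 5 CPM or more.

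**Figure D1:**
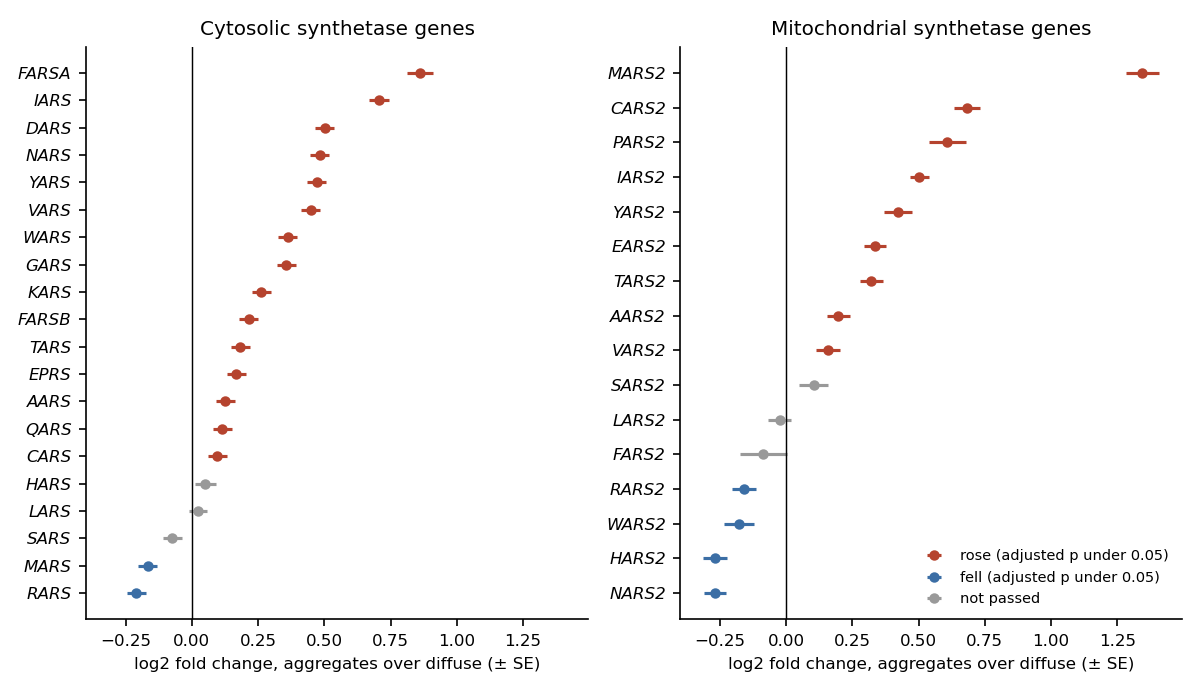
Log2 fold change (aggregates over diffuse, point) with its standard error (bar) for 20 cytosolic and 16 mitochondrial synthetase genes, ordered by change, from 3 libraries a group. Red points rose and blue points fell at an adjusted p under 0.05, and grey points did not pass. MARS2 stands apart at 1.34, FARSA leads the cytosolic genes at 0.86, and the 4 mitochondrial genes that fell reach -0.27.

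The largest change belonged to MARS2, which charges the mitochondrial methionine tRNA used both to start and to elongate chains. MARS2 (chromosome 2, 197705369 to 197708387, plus strand, hg38) stood at 19.2, 19.9 and 19.6 CPM in aggregates cells, against 7.37, 8.02 and 7.71 CPM in diffuse cells. All aggregates libraries were far above the highest diffuse library (2.54-fold by the fit, log2 fold change 1.34, SE 0.06, edgeR adjusted p = 1.78e-35). Scaled by transcript length, it was the least abundant of the 37 in diffuse cells, at 2.55 ± 0.11 CPM per kb, and reached 6.48 ± 0.12 CPM per kb in aggregates cells (SD, n = 3 each).

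FARSA encodes the catalytic alpha subunit of the cytosolic phenylalanine enzyme. It had 42.9, 45.8 and 41.5 CPM in aggregates cells and 25.1, 22.8 and 23.9 CPM in diffuse cells, without overlap (log2 fold change 0.86, SE 0.05, edgeR adjusted p = 1.32e-30). FARSB, the beta subunit of the same enzyme, moved less, with 145, 144 and 147 CPM in aggregates cells and 129.5, 120.1 and 126 CPM in diffuse cells (log2 fold change 0.21, edgeR adjusted p = 1.03e-07). Within libraries, the ratio of FARSA counts to FARSB counts was therefore 0.295, 0.318 and 0.284 in aggregates cells and 0.194, 0.19 and 0.189 in diffuse cells, a difference of 0.64 on the log2 scale (exact two-sided permutation test, p = 0.1, the smallest possible). This pair of subunits was chosen after its values were seen.

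IARS, the isoleucine enzyme of the multisynthetase complex, had 552, 552 and 577 CPM in aggregates cells and 343, 335 and 353 CPM in diffuse cells. Every aggregates library was above every diffuse library (log2 fold change 0.71, SE 0.04, edgeR adjusted p = 8.13e-33). Its mitochondrial partner IARS2 had 197, 192.5 and 199.9 CPM in aggregates cells and 138, 136 and 143 CPM in diffuse cells (log2 fold change 0.50, SE 0.04, edgeR adjusted p = 1.11e-23). Both isoleucine enzymes thus rose without overlap between groups.

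CARS2 and PARS2 charge the mitochondrial cysteine and proline tRNAs. CARS2 had 39.5, 41.0 and 37.5 CPM in aggregates cells and 23.9, 24.0 and 25.6 CPM in diffuse cells (log2 fold change 0.68, SE 0.05, edgeR adjusted p = 3.21e-24). PARS2 had 12.6, 13.1 and 12.1 CPM in aggregates cells and 8.64, 7.62 and 8.51 CPM in diffuse cells (log2 fold change 0.61, SE 0.07, edgeR adjusted p = 2.16e-13). The groups did not overlap for either gene.

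DARS and NARS, the cytosolic aspartate and asparagine enzymes, complete the 8 largest changes. DARS had 125, 125 and 126 CPM in aggregates cells and 86.8, 89.4 and 90.1 CPM in diffuse cells (log2 fold change 0.50, SE 0.04, edgeR adjusted p = 3.52e-23). NARS had 281, 278 and 283 CPM in aggregates cells and 199, 198 and 205 CPM in diffuse cells (log2 fold change 0.48, SE 0.04, edgeR adjusted p = 6.56e-23). Both were higher in every aggregates library than in any diffuse library.

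**Figure D2:**
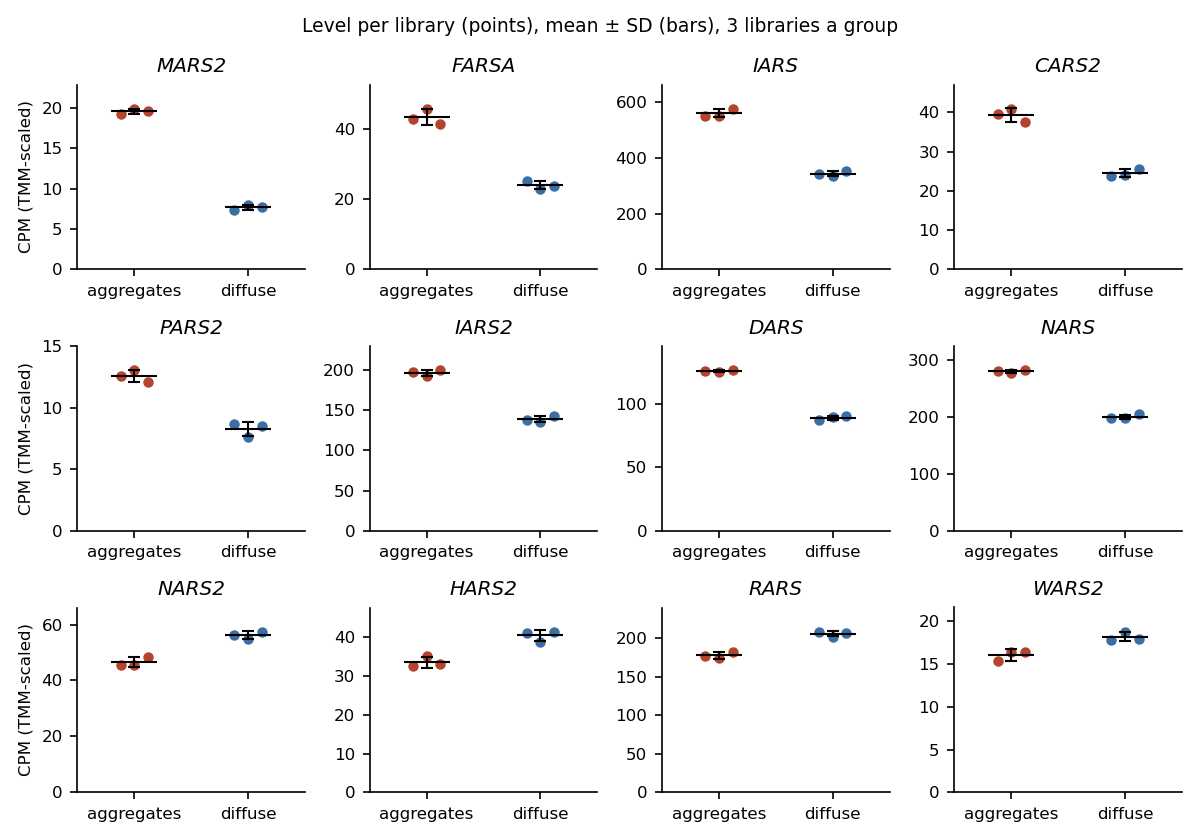
CPM of each library (points) with mean ± SD (bars) for the 8 synthetase genes of largest change and the 4 that fell most, aggregates left of diffuse, each axis from 0. No gene shown has overlapping groups: the 8 upper genes are higher in aggregates cells, and NARS2, HARS2, RARS and WARS2 are lower.

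Of the other cytosolic genes that rose, YARS, VARS, WARS and GARS, the tyrosine, valine, tryptophan and glycine enzymes, had log2 fold changes of 0.47, 0.45, 0.36 and 0.36. KARS (lysine) reached 0.26, TARS (threonine) 0.18 and EPRS 0.17. AARS (alanine), QARS (glutamine) and CARS (cysteine) rose by 0.13, 0.11 and 0.09, less than 1.1-fold each. CARS was no longer called without diffuse replicate 3 (edgeR adjusted p = 0.138). Of the other mitochondrial genes that rose, YARS2, EARS2 (glutamate) and TARS2 reached 0.42, 0.34 and 0.32, and AARS2 and VARS2 reached 0.20 and 0.16. Under the GC and length correction YARS2 was at 0.23, CARS at 0.22, EPRS at 0.27 and TARS at 0.28.

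The cytosolic genes that fell were RARS and MARS, the arginine and methionine enzymes. RARS had 177, 174 and 183 CPM in aggregates cells, against 209, 202 and 207 CPM in diffuse cells (log2 fold change -0.21, SE 0.04, edgeR adjusted p = 1.2e-07). MARS had 416, 429 and 418 CPM in aggregates cells, against 477, 467 and 473 CPM in diffuse cells (log2 fold change -0.17, SE 0.04, edgeR adjusted p = 2.19e-05). Every aggregates library lay below every diffuse library for both genes. MARS was at -0.11 under the GC and length correction. The mitochondrial methionine enzyme therefore rose while the cytosolic one fell.

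Among the mitochondrial genes, NARS2 and HARS2 (asparagine and histidine) fell most. NARS2 had 45.6, 45.7 and 48.5 CPM in aggregates cells, against 56.2, 54.7 and 57.5 CPM in diffuse cells (log2 fold change -0.27, SE 0.04, edgeR adjusted p = 1.06e-08). HARS2 had 32.6, 35.2 and 33.1 CPM in aggregates cells, against 41.2, 38.8 and 41.5 CPM in diffuse cells (log2 fold change -0.27, SE 0.05, edgeR adjusted p = 1.23e-07). WARS2 and RARS2 fell less, with log2 fold changes of -0.18 and -0.16 (RARS2 -0.24 under the GC and length correction).

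The 6 genes that did not pass were SARS2 (0.10), HARS (0.05), LARS (0.02), LARS2 (-0.02), SARS (-0.07) and FARS2 (-0.09), log2 fold changes in parentheses. SARS2 was at 0.15 and called without diffuse replicate 1 (edgeR adjusted p = 0.0173), at 0.04 without diffuse replicate 3 and at 0.05 without aggregates replicate 2. It was at 0.01 under the GC and length correction. SARS, the cytosolic serine enzyme and the most abundant synthetase per kb, had 429.6, 438 and 434 CPM in aggregates cells and 463, 449 and 457 CPM in diffuse cells, without overlap. Its adjusted p was 0.0567 in the edgeR test and 0.0215 in the DESeq2 test.

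Levels of the family differed widely per kb of transcript, and the cytosolic genes filled the upper ranks. In aggregates cells SARS (230.5 CPM per kb), GARS (199.5 CPM per kb) and TARS (196 CPM per kb) were highest and FARS2 lowest, at 2.92 CPM per kb. In diffuse cells the highest were SARS (242.5 CPM per kb), TARS (172 CPM per kb) and MARS (162.5 CPM per kb), and the lowest was MARS2. IARS2 was the mitochondrial gene of highest level per kb in both groups, at 55.2 CPM per kb in aggregates cells and 39.0 CPM per kb in diffuse cells. FARSA was the cytosolic gene of lowest level in both groups, at 21.1 CPM per kb in aggregates cells and 11.6 CPM per kb in diffuse cells.

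Comparing the cytosolic enzyme with its mitochondrial partner within each library removes the scaling between libraries. Of 18 such pairs, in which EPRS and FARS2 each stand in 2, 14 had ratios that did not overlap between groups (77.8%), 9 of them higher and 5 lower in aggregates cells. That share is close to the 76.2% of all single genes whose groups did not overlap. With 3 against 3 libraries, none of these exact two-sided permutation tests can go below p = 0.1. MARS counts were 21.6, 21.5 and 21.3 times those of MARS2 in aggregates cells, against 64.6, 58.1 and 61.2 times in diffuse cells, a difference of -1.51 on the log2 scale. The ratio of CARS to CARS2 differed by -0.59 and that of EPRS to PARS2 by -0.44, also toward the mitochondrial partner.

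The opposite shift, toward the cytosolic enzyme, was largest for phenylalanine, asparagine and tryptophan. FARSA over FARS2 differed by 0.95 on the log2 scale, NARS over NARS2 by 0.75 and WARS over WARS2 by 0.54. NARS counts were 6.17, 6.07 and 5.84 times those of NARS2 in aggregates cells, against 3.54, 3.62 and 3.57 times in diffuse cells. For the alanine, arginine, threonine and tyrosine pairs the groups overlapped, with differences of -0.07, -0.05, -0.14 and 0.05.

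**Figure D3:**
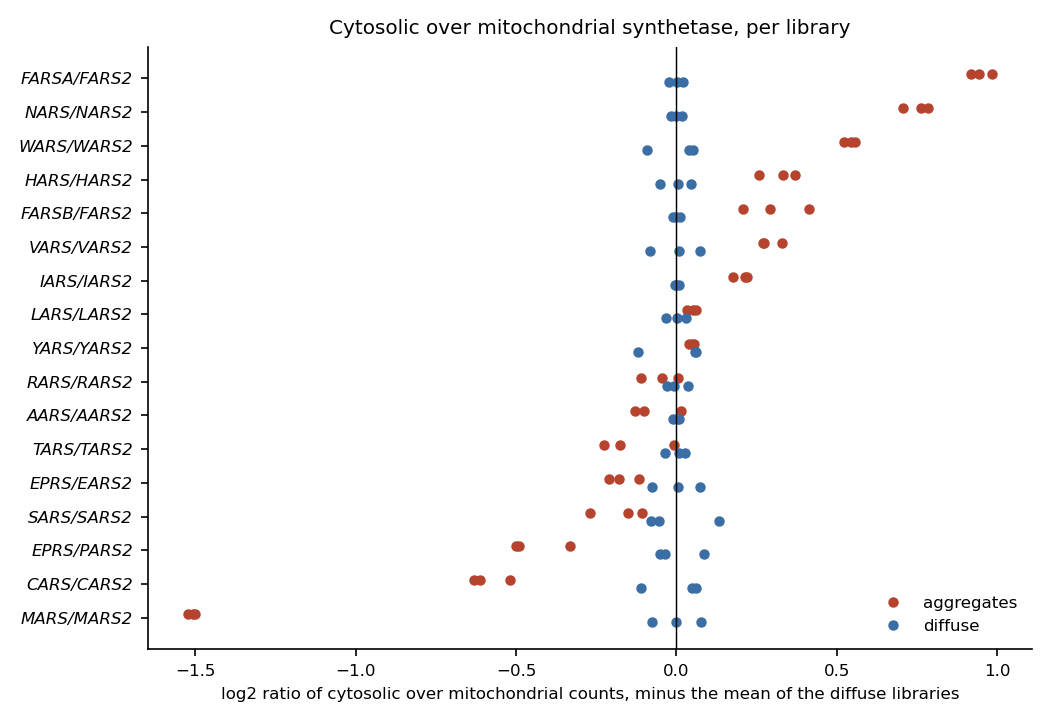
Log2 ratio of cytosolic over mitochondrial synthetase counts in each library, minus the mean of the diffuse libraries, for 17 pairs (aggregates red, drawn above diffuse blue, 3 libraries each). The MARS/MARS2 ratio lies furthest to the left, near -1.51, and FARSA/FARS2 furthest to the right, near 0.95, while the AARS, RARS, TARS and YARS pairs overlap.

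Of the 11 genes of the multisynthetase complex 8 rose (72.7%) and 2 fell (18.2%), where 37.8% of all genes rose and 37.6% fell. The median log2 fold change of the complex was 0.26. Of the 12 cytosolic synthetases outside the complex 10 rose (83.3%) and 0 fell (median 0.29, edgeR). In that group 1 gene, SARS, was lower at an unadjusted p under 0.05 and in the DESeq2 test. All 3 scaffold genes of the complex rose: EEF1E1 by 0.69 (SE 0.06), AIMP2 by 0.62 (SE 0.05) and AIMP1 by 0.34 (SE 0.04) on the log2 scale, with the complex members RARS and MARS lower. By structural class, of 18 class I genes 12 rose (66.7%) and 4 fell (22.2%), and of 18 class II genes 12 rose (66.7%) and 2 fell (11.1%). EPRS, holding a domain of each class, was left out of both. Differences between these subsets were not tested.

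The genes around the synthetases were described from lists of their functions. Of 14 genes for related or indirect charging and for repair of charged tRNA, 7 rose (50%) and 4 fell (28.6%). Over all tested genes, 37.8% rose and 37.6% fell. The median log2 fold change of the list was 0.26. GATB, a subunit of the amidotransferase that makes mitochondrial glutaminyl-tRNA, had 21.6 ± 0.33 CPM in aggregates cells and 11.4 ± 0.69 CPM in diffuse cells (SD, n = 3 each, log2 fold change 0.92). MTFMT, which formylates the mitochondrial initiator methionyl-tRNA charged by MARS2, had 22.5, 21.8 and 21.6 CPM in aggregates cells and 11.4, 12.1 and 12.1 CPM in diffuse cells (log2 fold change 0.89). DTD1, which removes D-amino acids from tRNA, rose by 0.86 and AARSD1, an editing enzyme for mischarged alanine tRNA, by 0.51. GATC, another subunit of the same amidotransferase as GATB, fell (log2 fold change -0.16, edgeR adjusted p = 0.00125). The others that fell were TRNT1 (-0.44), PSTK (-0.29) and TARSL2 (-0.16), with edgeR adjusted p-values of 7.88e-14, 0.000356 and 0.0021.

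All 10 genes of translation elongation rose (median log2 fold change 0.46), where 37.8% of all genes did. Of these, 9 rose under the GC and length correction and 8 against a fold of 1.2. EEF1A1, the cytosolic factor that carries charged tRNA to the ribosome, had 6030 ± 184 CPM in aggregates cells and 3358 ± 117 CPM in diffuse cells (SD, n = 3 each, log2 fold change 0.84). Its mitochondrial counterpart TUFM rose by 0.56, the exchange factor TSFM by 0.54 and the mitochondrial recycling factor GFM2 by 0.60. Of 23 genes of tRNA processing and export, 18 rose (78.3%) and 3 fell (13%), where 37.8% and 37.6% of all genes did (median 0.38 for the list). TSEN15, a subunit of the tRNA splicing endonuclease, rose by 0.64, and POP5 of RNase P rose by 0.68, whereas RPP14 of RNase P fell by 0.66.

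The genes of the amino acid response moved in both directions. Of 30 genes of that list, 11 rose (36.7%) and 16 fell (53.3%), where 37.8% of all genes rose and 37.6% fell. The share that rose was thus close to that of all genes. The median log2 fold change of the list was -0.10. ATF4 itself had 622 ± 8.6 CPM in aggregates cells and 789 ± 17 CPM in diffuse cells (SD, n = 3 each, log2 fold change -0.34, edgeR adjusted p = 3.33e-14), and the related factor ATF5 fell by 0.65; both were named after their values were seen. TRIB3, a pseudokinase induced by ATF4, had 177 ± 3.1 CPM in aggregates cells and 91.3 ± 4.6 CPM in diffuse cells (SD, n = 3 each, log2 fold change 0.95), and PYCR1, an enzyme of proline synthesis, rose by 0.68. SLC38A2, a transporter of neutral amino acids, had 450.3 ± 12.2 CPM in aggregates cells and 826 ± 3.3 CPM in diffuse cells (log2 fold change -0.88). ATF3, a transcription factor of the stress response, fell by 0.69. The genes named from these 4 lists without a p-value given beside them had edgeR adjusted p-values of at most 3.59e-17.

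**Figure D4:**
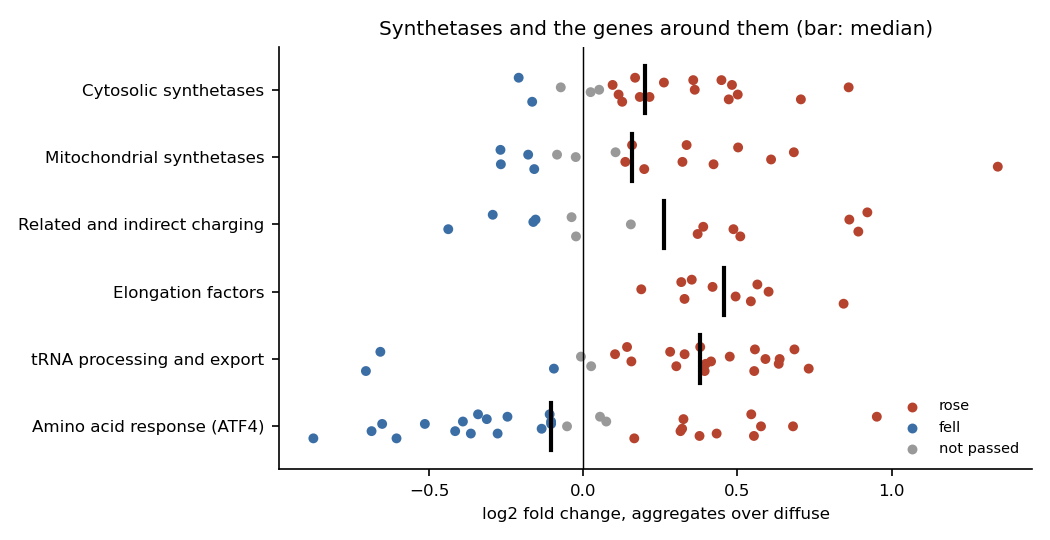
Log2 fold change (aggregates over diffuse) of each tested gene in the 2 synthetase groups and 4 lists of related genes (red rose, blue fell, grey did not pass, black bar the median). All 10 elongation factors lie to the right of 0, and the amino acid response genes lie on both sides with a median of -0.10.

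Promoter sequence of 30 of the 37 genes was found in RefSeq (build GRCh38.p14), from 250 bases before to 50 bases after the start site. AARS2, DARS, LARS, VARS, VARS2 and YARS were among those with no entry. The element TGATGNAA, the composite site of C/EBP and ATF factors such as ATF4, was searched on both strands. It was found in 8 of these 30 promoters (26.7%) and in 4.46% of the promoters of all 27305 genes in the RefSeq table. The windows of 30 bases around it are shown because the genes that share it moved differently, with the element or its reverse complement in capitals, each read on the strand of its gene.
IARS (chr9:92293692-92293721, minus): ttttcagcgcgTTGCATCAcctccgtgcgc
NARS (chr18:57621804-57621833, minus): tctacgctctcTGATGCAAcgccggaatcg
YARS2 (chr12:32756076-32756105, minus): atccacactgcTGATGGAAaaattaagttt
GARS (chr7:30594834-30594863, plus): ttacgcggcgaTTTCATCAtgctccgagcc
TARS (chr5:33440956-33440985, plus): gcgcctttcgaTTGCATCAgctggtccagc
AARS (chr16:70289675-70289704, minus): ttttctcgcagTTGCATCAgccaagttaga
CARS (chr11:3057407-3057436, minus): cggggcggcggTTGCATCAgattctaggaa
MARS (chr12:57488053-57488082, plus): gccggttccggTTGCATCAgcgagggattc

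The sequences stand in the order of the log2 fold changes, which were 0.71 for IARS, 0.48 for NARS, 0.42 for YARS2, 0.36 for GARS, 0.18 for TARS, 0.13 for AARS, 0.09 for CARS and -0.17 for MARS. Thus 7 genes with the element rose and 1 fell, where 67.6% of all 37 members rose and 16.2% fell. Whether members with this element, or with those that follow, moved differently from members without was not tested. The E-box CACGTG was in 4 of 30 promoters (13.3%; 8.77% of all), those of MARS2, CARS2, EARS2 and IARS, and all 4 genes rose. The NRF1 site, GCGCA directly followed by TGCGC, was in 1 (3.33%; 1.52% of all), that of MARS2. The core of the antioxidant response element, TGAC and GCA with 3 free bases between them, was in 0 of 30 (3.94% of all). All were searched on both strands. The NRF1 site holds no E-box, and a match describes letters and no binding.

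MARS2, the gene of largest change, had the E-box and the NRF1 site within the 60 bases before its start, both in capitals.
MARS2 (chr2:197705309-197705368, plus): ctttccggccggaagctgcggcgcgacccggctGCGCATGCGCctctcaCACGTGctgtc

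Splicing was measured as counts of spliced reads per intron, grouped into clusters of introns that share a splice site. Among synthetase genes, 16 of 171 tested clusters changed (9.36%), against 5.02% of all 35898 tested clusters (edgeR diffSpliceDGE with Simes combination, adjusted p under 0.05). These shares were not matched for depth. The median level of the synthetase genes was 107 CPM, against 16.6 CPM over all tested genes, and the part of depth in the higher share was not tested. The 16 clusters lay in 13 genes of the 35 with a tested cluster, and MARS2 and PARS2 had none. Of the 686 introns tested in the 171 clusters, 2 rose and 21 fell relative to their cluster, and 14 of those 23 are not in GENCODE 29. Over all introns tested, 888 (0.614%) rose and 2082 (1.44%) fell. Without aggregates replicate 3 the number of changed clusters was 8, and without diffuse replicate 2 it was 9. The clusters of YARS, SARS, AARS, GARS, HARS2 and IARS remained changed whichever library was left out, 6 in all.

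The largest shift was in HARS2, whose exon of 99 nt (chromosome 5, 140696103 to 140696201, plus strand, hg38) is coding and annotated. Its inclusion was 88.4%, 87.5% and 86.1% in aggregates cells and 74.2%, 71.2% and 71.6% in diffuse cells, without overlap. The intron that skips it fell by 9.28 percentage points of the cluster (edgeR adjusted p = 1.39e-03 for the cluster). The whole gene was lower in aggregates cells, as given above. NARS2, also lower as a gene, included a coding exon of 27 nt (chromosome 11, 78441091 to 78441117, minus strand) at 93.5%, 94.1% and 94.2% in aggregates cells and 86.2%, 85.9% and 86.1% in diffuse cells. The groups did not overlap (edgeR adjusted p = 0.0131 for the cluster), but the call was lost in 4 of the 6 fits that leave out a library. These were the fits without aggregates replicate 2 or 3 or diffuse replicate 2 or 3 (edgeR adjusted p up to 0.0621). The exons are shown in capitals between 12 bases of each neighbouring exon, from the GENCODE 29 transcripts, since both have a length divisible by 3.
HARS2 (chr5:140696103-140696201, plus): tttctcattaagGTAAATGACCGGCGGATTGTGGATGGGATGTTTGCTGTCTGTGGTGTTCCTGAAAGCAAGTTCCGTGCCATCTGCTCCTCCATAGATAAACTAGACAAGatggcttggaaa
NARS2 (chr11:78441091-78441117, minus): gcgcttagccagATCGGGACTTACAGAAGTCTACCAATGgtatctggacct

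AARS had introns in aggregates cells with 0 counts in every diffuse library. An exon of 87 nt absent from the annotation (chromosome 16, 70272796 to 70272882, minus strand), inside an annotated intron, was included at 1.53%, 1.83% and 1.49% in aggregates cells. In diffuse cells 0 of 2823 counts of the cluster joined it, which allows a share of up to 0.106%. Both flanking introns passed the test (edgeR adjusted p = 9.29e-07 for the cluster). They were the only introns of the synthetase genes that rose relative to their cluster.

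Most other changed introns were rare forms that were used less in aggregates cells. In YARS an unannotated intron that skips 2 annotated exons, of 176 and 147 nt, had 28, 24 and 15 counts in aggregates libraries and 75, 61 and 60 counts in diffuse libraries. That was 0.129 ± 0.040% of the cluster in aggregates cells and 0.560 ± 0.087% in diffuse cells (SD, n = 3 each, edgeR adjusted p = 3.6e-09 for the cluster). In SARS an intron with an unannotated acceptor took 0.952% of the cluster in aggregates cells and 2.54% in diffuse cells (edgeR adjusted p = 8.63e-07 for the cluster, 2.74e-07 for the intron). An annotated intron from the same donor took 40.2 ± 2.1% in aggregates cells and 35.4 ± 0.95% in diffuse cells, but did not pass by itself (edgeR adjusted p = 0.35). In GARS an unannotated intron took 0.0845% in aggregates cells and 1.01% in diffuse cells (edgeR adjusted p = 1.04e-04 for the cluster).

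Annotated but rarely used exons were less included in aggregates cells in IARS and CARS. The IARS exon of 49 nt was included at 2.51 ± 0.26% in aggregates cells and 4.85 ± 0.27% in diffuse cells (SD, n = 3 each, edgeR adjusted p = 1.66e-03 for the cluster). The flanking intron on 1 side passed by itself (edgeR adjusted p = 0.00122) and that on the other did not (0.251). The CARS exon of 134 nt was included at 0.407 ± 0.122% in aggregates cells and 2.62 ± 0.54% in diffuse cells (edgeR adjusted p = 3.4e-03 for the cluster, and 0.0627 without diffuse replicate 2). LARS held 4 changed clusters, each resting on unannotated introns with at most 24 counts in a library, and TARS and RARS2 held 1 each. The call was lost in 1 to 5 of the 6 fits that leave out a library for the LARS clusters, in 4 for TARS and in 6 for RARS2. The cluster placed in SARS2 (edgeR adjusted p = 0.0312) rested on 13 counts of diffuse replicate 1 and 3 of replicate 3. Its call was lost in 4 of the 5 such fits that tested it (edgeR adjusted p up to 0.127). In the cluster placed in FARSA (edgeR adjusted p = 0.0192) the changed intron is annotated in the neighbouring gene SYCE2. That call was lost in 4 of 6 fits (edgeR adjusted p up to 0.154).

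KARS makes its cytosolic and mitochondrial forms by alternative splicing of an exon near the start of the gene. The KARS exon of 180 nt (chromosome 16, 75644283 to 75644462, minus strand) was included at 46.7%, 38.3% and 42.5% in aggregates cells and 41.8%, 38.1% and 37.4% in diffuse cells. The groups overlapped and the cluster did not pass (edgeR adjusted p = 0.328), so no shift between the forms was detected.

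**Figure D5:**
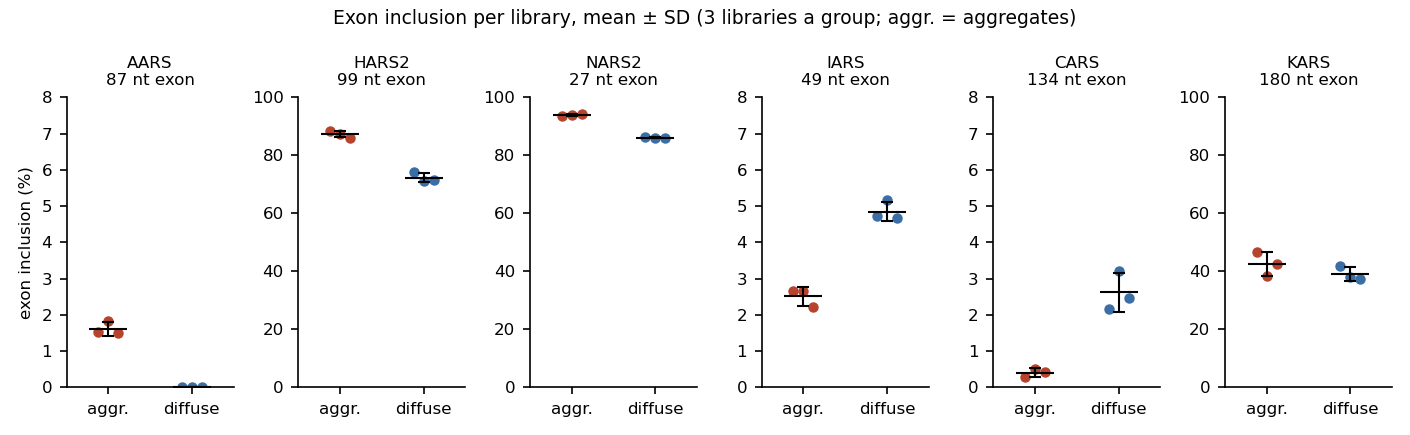
Exon inclusion (%) in each library (points) with mean ± SD (bars), aggregates left of diffuse, for 6 synthetase exons; the HARS2, NARS2 and KARS axes run to 100% and the AARS, IARS and CARS axes to 8%. HARS2 and NARS2 exons are higher in aggregates cells, the AARS exon has 0 counts in diffuse cells, IARS and CARS exons are lower, and the KARS groups overlap.

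Several values carry limits of the measurement. Libraries held 40279084 to 46863013 gene counts, and the common biological coefficient of variation was 3.08%, so small differences pass the test. TARDBP, the gene of TDP-43, was at 2581 ± 42.5 CPM in aggregates cells and 7440 ± 218 CPM in diffuse cells, a sum of the endogenous gene and any counted reads of the transgene. Of 8 mesenchymal markers listed for the line, VIM, FN1, COL1A1 and SPARC were among those present, while TWIST1 had at most 2 counts in a library. The 8 summed to 5350 to 5820 CPM in aggregates cells and 8190 to 8430 CPM in diffuse cells. Of that list COL1A1, COL1A2, VIM and FN1 fell, RUNX2 rose (log2 fold change 0.56), SPARC and CDH2 did not pass and TWIST1 was not tested. Epithelial markers summed to 13.8 to 15.1 CPM in aggregates cells and 19.6 to 20.5 CPM in diffuse cells. Of these CLDN4 fell (log2 fold change -1.05), ESRP1 rose (0.34) and EPCAM and CDH1 did not pass. KRT19 had at most 2 counts in a library and was not tested. Neuronal markers summed to 78.8 to 80.9 CPM in aggregates cells and 79.0 to 81.3 CPM in diffuse cells. The similar neuronal sums hold opposite changes, with RBFOX3 (log2 fold change 2.85), ELAVL4 (0.78) and SYP (0.55) higher and SYT1 (-1.68) and SNAP25 (-0.71) lower. The 5 blood markers summed to 0.213 to 0.385 CPM in aggregates cells and 0.348 to 0.497 CPM in diffuse cells. None had more than 16 counts in a library. No marker of the lists was at 0 in all libraries, but LYZ and HBB each had 1 count, in aggregates replicate 3 alone. The transcripts of the mitochondrial genome took 3.45%, 3.3% and 3.48% of counts in aggregates libraries and 2.54%, 3.37% and 2.53% in diffuse libraries, which overlap. The part of these differences in the synthetase changes was not tested, nor can fewer cells of a state and less RNA per cell be told apart in bulk samples.

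Some members share exon sequence with a neighbour, and the strand setting of the counting is not given in the sources used here. HARS and HARS2 overlap by 437 exon bases on opposite strands, MARS and DDIT3 by 355, KARS and TERF2IP by 176, and VARS2 and GTF2H4 by 1858 on the same strand. CARS2 overlaps ING1 by 326 bases and YARS overlaps S100PBP by 396. Some neighbours moved the other way: TERF2IP, ING1 and S100PBP had log2 fold changes of -1.08, -0.97 and -1.03 while KARS, CARS2 and YARS rose. DDIT3 had 0.55 while MARS fell. Others moved the same way: GTF2H4, on the same strand, had 0.49 where VARS2 had 0.16. MRPS12, which overlaps SARS2 by 349 bases on the opposite strand, had 0.85 where SARS2 had 0.10. The part of shared reads in the members' changes was not tested. No overlap was found for MARS2, IARS, IARS2, PARS2 or NARS.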

How the data were processed

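RNA of 6 sorted U2OS samples (3 per group) was sequenced after polyA selection with a stranded library kit, per the labels' protocols. The submitters' processing notes name the build hg38, STAR 2.7.11a and fastp 0.23.2. Neither the gene counter nor its strand setting or annotation is given in these sources. The authors deposited whole-number counts, not normalized, per gene and per intron in clusters. The depth was 40279084 to 46863013 gene counts and 25341453 to 32020553 intron counts per library, and limits from a count of 0 (3 counts) cover counting error only.

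Genes were tested with edgeR 4.0.16 (R 4.3.3): filterByExpr, TMM, robust quasi-likelihood fit, Benjamini-Hochberg adjustment over 17839 genes. Introns with at least 10 counts, in clusters of at least 2 with at least 10 counts in every library, were tested with diffSpliceDGE. Exon inclusion divides the mean count of the introns on either side by the sum of that mean and the count of the intron skipping the exon. Pair ratios used counts plus 0.5. Levels per kb used the GENCODE 29 transcript of longest coding sequence. Genes, introns and exons were placed with GENCODE 29. Both tests were tested on simulated data. The replicates, from independent transfections per the series design, differed by more than sampling noise (chi-square per degree of freedom 2.59 to 6.34). PRORP is the file's name for 1 listed gene.

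By the rule for named genes, the text names the members, most fully the 8 of largest change, all changed clusters, and from each list up to 4 changed genes of at least 5 CPM, beside the other scaffold genes. ATF4, ATF5 and the genes that fell in the list for related or indirect charging were named in addition, after their values were seen. A member and a listed gene, counted in the totals, are not reported singly here or drawn by name. The members and lists were chosen with earlier results of these data known. The alternatives tried were other scalings, DESeq2 1.42.0, other filters, a fold of 1.2, a replicate block, a GC and length correction, each library left out, a pseudocount of 5, a cluster minimum of 20 and a cluster F test.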

Additional observations from a re-analysis of the deposited data

How the results depend on the processing

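Of the 31 synthetase genes called, all 31 kept their call and direction under DESeq2 size factors, library totals alone, the DESeq2 test, no filter, a mean of at least 5 CPM, the replicate block and the GC and length correction, and 30 without diffuse replicate 3. Against a fold of 1.2, 14 members rose and 0 fell (cytosolic 8 and 0, mitochondrial 6 and 0), and 4483 of all genes rose, since that test asks for a larger change. Leaving out 1 library gave 24 to 26 members risen and 6 to 7 fallen (cytosolic 14 to 15 and 2 to 3, mitochondrial 10 to 11 and 4). The GC and length correction gave 27 members risen and 7 fallen, with LARS at a log2 fold change of 0.20 and HARS at 0.16, both then called, and LARS2 changed sign to 0.0512. With a library left out LARS ran from -0.0003 (without diffuse replicate 2) to 0.0338. The GC and length correction also moved YARS2, CARS, EPRS, TARS, MARS, RARS2 and SARS2 by over 1.5 times, as given with their values. SARS was lower and called in 5 alternatives. The log2 ratio of YARS to YARS2 ran from -0.0114 (without diffuse replicate 3) to 0.0781 with a library left out, and no other pair changed direction. The called clusters numbered 8 to 15 with a library left out and 24 by the F test. The cause of these shifts was not tested. Same-numbered libraries of the groups correlated at 0.03, 0.08 and 0.23 in their deviations, so the numbers were not taken to pair them; with the replicate block 25 members rose and 7 fell, SARS being added (edgeR adjusted p = 0.0401), and 13 clusters were called. Depth limits chiefly the rare introns, several of which had under 30 counts in a library.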
